A study of Rattus norvegicus with 14 samples.

Results

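The genes described here are 9 genes of the retinoic acid pathway, chosen by name from the 16816 rows of a gene count table: the dehydrogenases Rdh10, Aldh1a1, Aldh1a2 and Aldh1a3, the carrier proteins Crabp2 and Rlbp1, and the nuclear receptors Rara, Rarb and Rarg. All 9 had a row in the table, and none was without a read. RNA-seq was performed on PCCL3 cells, a rat thyroid follicular cell line, carrying either the empty vector (EV cells) or the human PAX8-PPARG fusion protein with a Myc tag (PPFP cells). Both lines were cultured for 16 hours with 1 μM pioglitazone, an agonist ligand of PPARG, or with its DMSO vehicle, with 3 libraries in each of the 4 groups. All 4 groups grew in medium with serum, thyrotropin, insulin and hydrocortisone. Each condition was thus compared within 1 transfected line of each kind, so that PPFP and other differences between the lines cannot be told apart. The members were picked with results of these counts already known, so the number of them that changed is a description and not independent evidence.

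Retinoic acid is made from retinol (vitamin A) in successive oxidations. Retinol dehydrogenases such as Rdh10 convert retinol to retinal, and the ALDH1A enzymes convert retinal to retinoic acid, which Crabp2 carries to the nucleus. There it binds the retinoic acid receptors, which pair with retinoid X receptors (RXRs) on DNA. PPARG uses the same RXR partners. Rlbp1 binds 11-cis retinoids and is best known from the visual cycle of the retina.

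The libraries held between 23724703 and 35240176 counts on genes. Levels are given below as CPM, which are counts scaled to the library total, with TMM normalisation over the 12 libraries, as mean ± SD of 3 libraries. In bulk RNA, fewer cells that express a gene and less RNA per cell cannot be told apart. The transfected gene was checked first. Without pioglitazone, the rat Pparg row had 1.60 ± 0.35 CPM in the EV line against 54.1 ± 6.82 CPM in the PPFP line, in the direction the labels give. The 6 thyroid marker genes used (Tg, Slc5a5, Tshr, Pax8, Nkx2-1 and Foxe1) were counted in every group, with a summed level between 9750 and 14055 CPM. Most of this sum was Tg, and single markers moved with the groups. Without pioglitazone Foxe1 was lower in PPFP than in EV cells (132.3 ± 16.0 against 872.6 ± 30.4 CPM, adjusted p = 4.0e-06), as was Slc5a5 (338.8 ± 31.7 against 1122 ± 39.9 CPM, adjusted p = 1.4e-05), while Tshr was higher (502.1 ± 44.8 against 318.3 ± 25.4 CPM, adjusted p = 0.0014). Nkx2-1 was also lower (log2 fold change -0.58, SE 0.10, adjusted p = 0.0026). With pioglitazone in PPFP cells 4 of the 6 passed the test, all lower (Tg -0.47, Slc5a5 -0.92, Pax8 -0.33 and Nkx2-1 -0.34), and the interaction of Slc5a5 had an adjusted p of 0.016. All 3 C cell markers used (Calca, Chga and Chgb) and 4 of 6 fibroblast markers had at most 3 counts in every library. The other 2 were Col1a1, with 23 to 96 counts, and Pdgfra, with 517 to 938. Pdgfra was higher in PPFP than in EV cells when both had pioglitazone (29.5 ± 3.81 against 21.7 ± 1.11 CPM, log2 fold change 0.46, SE 0.12, adjusted p = 0.014). The 5 adipocyte markers summed to between 1.17 and 3.14 CPM in EV cells, between 0.629 and 2.77 CPM in EV cells with pioglitazone, between 18.8 and 19.5 CPM in PPFP cells and between 53.3 and 73.5 CPM in PPFP cells with pioglitazone. The sums of PPFP cells rested mostly on Plin1 and Cidec, lipid droplet proteins, which rose with PPFP and again with pioglitazone, whereas those of EV cells were nearly all Adipoq. Adipoq was higher in PPFP than in EV cells without pioglitazone and fell with pioglitazone in PPFP cells, from 4.54 ± 0.18 to 2.40 ± 0.55 CPM (log2 fold change -0.91, SE 0.19, adjusted p = 0.024). Lep had 0 counts in every library and Fabp4 at most 5. The part of these shifts in the results was not tested.

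Without pioglitazone, PPFP cells had more Aldh1a1, Rlbp1 and Rara RNA than EV cells and less Rarb RNA. With pioglitazone, Aldh1a1 rose further in PPFP cells, whereas Rlbp1 and Rarb were at about the levels of EV cells that also had pioglitazone. The mean of Rarb, 1.01 CPM, was below the 1.36 CPM of EV cells without pioglitazone, a difference that was not tested. The call of its rise was lost with any 1 library left out. Rdh10 and Rarg did not pass the test between the cell lines, and Aldh1a2, Aldh1a3 and Crabp2 were at or close to the detection floor, here set at 3 counts per library. None of the 7 genes tested for pioglitazone in EV cells passed, and Aldh1a2 and Aldh1a3 had too few reads for that test.

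**Figure D1:**
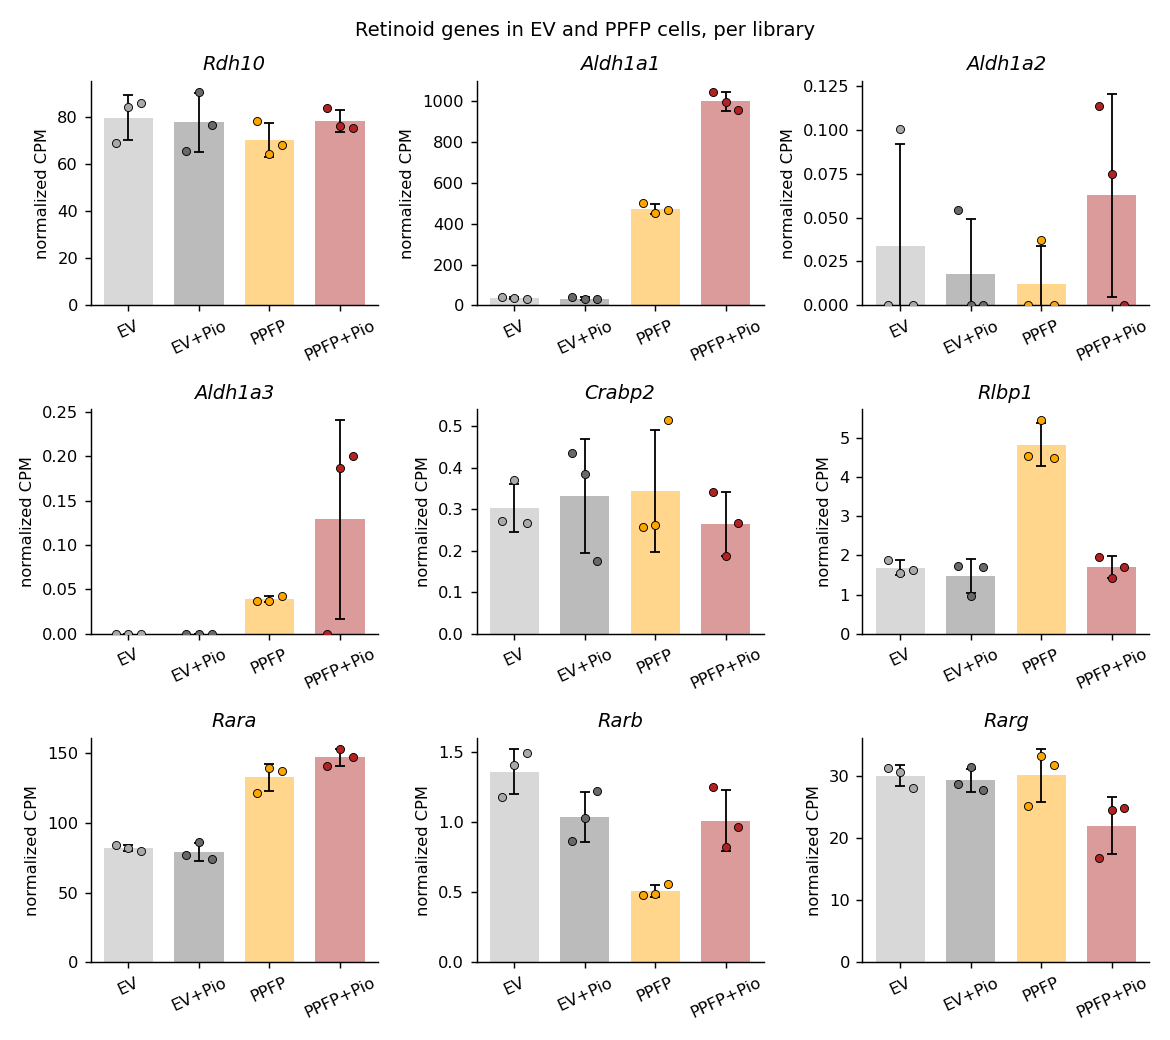
Normalized CPM (linear axes, 1 scale per gene) of the 9 retinoid genes in EV and PPFP cells with and without pioglitazone (Pio). Points are the 3 libraries of a group, bars the mean and error bars the SD. Aldh1a1 stepped up from EV to PPFP cells and again with pioglitazone, while Rlbp1 was high, at 4.82 CPM, in PPFP cells without pioglitazone only.

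Aldh1a1, a cytosolic retinal dehydrogenase, had the widest range of group means among the members averaging 1 CPM or more. Its level was 42.1, 37.8 and 31.3 CPM in the 3 libraries of EV cells and 39.2, 29.5 and 30.8 CPM in EV cells with pioglitazone. In PPFP cells it was 500.1, 450.0 and 467.6 CPM, and with pioglitazone 1046, 995.4 and 954.5 CPM. The 2 groups of EV cells overlapped, and both groups of PPFP cells stood apart from them and from each other. Among all genes tested, 56.5% had no overlap between PPFP and EV cells without pioglitazone and 62.9% with it. For pioglitazone in PPFP cells this share was 34.4%. The log2 fold change of PPFP versus EV cells was 3.67 (SE 0.13, adjusted p = 3.5e-06, edgeR quasi-likelihood test), a fold of 12.7. When both lines had pioglitazone it was 4.93 (SE 0.14, adjusted p = 1.5e-06). Pioglitazone raised Aldh1a1 in PPFP cells by 1.09 on the log2 scale (SE 0.06, adjusted p = 0.00036), a fold of 2.13, and in EV cells its log2 fold change was -0.16 (SE 0.15, adjusted p = 1.0). The difference between these responses, tested as the interaction in a fit of all 4 groups, was 1.24 (SE 0.17, adjusted p = 0.0035). Thus the response to pioglitazone differed between the cell lines by more than the spread between libraries.

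The row of Aldh1a7, a close relative of Aldh1a1, was looked at after the values were seen, because reads of near-identical genes may be split between rows. It held between 2 and 27 counts per library, against between 882 and 28596 for Aldh1a1. Without pioglitazone it had 11, 6 and 5 counts in EV cells and 16, 18 and 17 in PPFP cells. The edgeR test called Aldh1a7 higher in PPFP than in EV cells without pioglitazone (fold 2.66, adjusted p = 0.018) and with it (fold 4.85, adjusted p = 0.0030). It passed the filter on low counts only through PPFP cells, so nothing is read from these calls. Whether reads were split between the 2 rows was not tested. The counts of Aldh1a7 are uncertain for that reason, and they are few beside those of Aldh1a1.

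The promoter of Aldh1a1 is shown because this gene had the widest range of group means among the members averaging 1 CPM or more. The window is chr1:227537370-227537669 on the plus strand of GRCr8, from RefSeq, and runs from 250 bases before to 50 bases after the annotated start. Capitals mark CCAAT boxes, which begin 88 and 18 bases before the start, and the octamer ATGCAAAT, which begins 72 bases before it.
Aldh1a1 promoter: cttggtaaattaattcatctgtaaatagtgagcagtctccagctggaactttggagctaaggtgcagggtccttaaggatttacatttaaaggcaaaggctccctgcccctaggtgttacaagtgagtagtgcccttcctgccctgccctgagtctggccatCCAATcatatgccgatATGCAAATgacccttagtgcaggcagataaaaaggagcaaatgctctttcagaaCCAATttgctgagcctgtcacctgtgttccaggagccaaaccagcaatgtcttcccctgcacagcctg
On either strand, CCAAT was found in 37.5% of 33469 such rat promoter windows and the octamer in 1.78%. The nuclear receptor hexamer AGGTCA was not in this window, nor was either variant of it found for Rarb. The positions of PPFP binding in the deposited peak list belong to the older rn4 build and were not used here.

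The other enzymes gave little signal or little change. Aldh1a2 had 0 to 3 counts in every library of the 4 groups and Aldh1a3 0 to 6. All 6 libraries of EV cells had 0 counts of Aldh1a3, which allows at most 3 counts per library, and the 3 libraries of PPFP cells had 1 count each. With pioglitazone the libraries of PPFP cells had 0, 5 and 6 counts, and the fold over the floor in EV cells was at least 1.37. Neither gene passed the filter on low counts. Hence among the 3 ALDH1A genes, Aldh1a1 alone had enough reads for a test.

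Rdh10, the retinol dehydrogenase of the first step, was expressed in all groups. Its level was 69.0, 84.3 and 86.2 CPM in EV cells, 65.7, 90.8 and 76.6 CPM in EV cells with pioglitazone, 78.3, 64.4 and 68.0 CPM in PPFP cells, and 83.8, 76.0 and 75.4 CPM in PPFP cells with pioglitazone. The ranges of the 4 groups overlapped. The log2 fold change between the cell lines was -0.18 (SE 0.12, adjusted p = 0.24) without and 0.03 (SE 0.12, adjusted p = 0.86) with pioglitazone.

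Crabp2, which delivers retinoic acid to its receptors, had between 5 and 16 counts in each library, or 0.175 to 0.514 CPM. The groups overlapped throughout. Crabp2 passed the filter only where EV cells with and without pioglitazone were compared, with a log2 fold change of 0.15 (SE 0.41), and in the interaction fit, with -0.51 (SE 0.59, adjusted p = 0.85). No change of Crabp2 was detected, and small changes could not be seen at this depth.

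Rlbp1, a carrier of 11-cis retinal and retinol, moved in opposite directions with PPFP and with pioglitazone. Its counts were 56, 46 and 49 in EV cells and 123, 146 and 105 in PPFP cells, or 1.89, 1.54 and 1.63 CPM against 4.52, 5.45 and 4.50 CPM. In PPFP cells with pioglitazone they were 52, 38 and 51, or 1.97, 1.42 and 1.70 CPM, and in EV cells with pioglitazone 64, 30 and 49, or 1.74, 0.964 and 1.71 CPM. Every library of PPFP cells without pioglitazone was above all 9 others, and the other 3 groups overlapped. Rlbp1 was higher in PPFP than in EV cells by 1.51 on the log2 scale (SE 0.18, adjusted p = 0.00048) without pioglitazone. With pioglitazone in both lines the difference was 0.22 (SE 0.28, adjusted p = 0.54), with a 95% interval from -0.33 to 0.77. In PPFP cells the log2 fold change with pioglitazone was -1.50 (SE 0.17, adjusted p = 0.0027), and in EV cells it was -0.20 (SE 0.27, adjusted p = 1.0). The difference between the responses was -1.31 (SE 0.32) and missed the threshold (adjusted p = 0.059). It passed without library 2 of EV cells with pioglitazone (adjusted p = 0.013) and in DESeq2 (0.0071).

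The Rlbp1 window is shown because this gene, like Rarb, had opposite changes with PPFP and with pioglitazone. It is chr1:142731572-142731871 on the minus strand of GRCr8, from RefSeq, and capitals mark GGTTCA, which begins 222 bases before the start, and ATTGG, the CCAAT box on the other strand, 67 bases before it.
Rlbp1 promoter: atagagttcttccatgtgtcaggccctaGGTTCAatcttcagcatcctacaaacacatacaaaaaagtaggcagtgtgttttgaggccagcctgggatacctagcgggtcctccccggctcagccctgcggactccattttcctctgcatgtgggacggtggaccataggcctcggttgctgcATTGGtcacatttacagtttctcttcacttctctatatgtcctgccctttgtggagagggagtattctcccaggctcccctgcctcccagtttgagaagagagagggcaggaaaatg
GGTTCA on either strand was found in 11.7% of the windows, so a match of this length is common.

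The receptors followed 3 different courses. Rara was at 84.4, 81.9 and 80.2 CPM in EV cells and at 76.7, 86.3 and 74.4 CPM in EV cells with pioglitazone. It was at 121.6, 139.4 and 137.4 CPM in PPFP cells and at 141.1, 153.4 and 147.2 CPM in PPFP cells with pioglitazone. All 6 libraries of PPFP cells were above all 6 of EV cells, and the 2 groups of PPFP cells did not overlap. Such separation was common, with 56.5% of all genes tested apart between the lines without pioglitazone and 34.4% between the groups of PPFP cells. The log2 fold change of PPFP versus EV cells was 0.69 (SE 0.08, adjusted p = 0.00045) without and 0.91 (SE 0.08, adjusted p = 0.00011) with pioglitazone, both under the fold limit of 2.

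Rarb, itself a known target of retinoic acid, went the other way and was counted rarely. It had 35, 42 and 45 counts in EV cells, 32, 32 and 35 in EV cells with pioglitazone, 13 in each library of PPFP cells, and 33, 22 and 29 in PPFP cells with pioglitazone. In CPM the groups were at 1.36 ± 0.16, 1.04 ± 0.18, 0.507 ± 0.043 and 1.01 ± 0.22. Every library of PPFP cells without pioglitazone was below all 9 others. Rarb was lower in PPFP cells, with a log2 fold change of -1.42 (SE 0.25, adjusted p = 0.0027). With pioglitazone in both lines it was -0.02 (SE 0.26, adjusted p = 0.96), with a 95% interval from -0.52 to 0.48. Pioglitazone raised Rarb in PPFP cells by 1.00 (SE 0.24, adjusted p = 0.041), a fold of 2.01. This call lay at the limit, since with any 1 of the 6 libraries left out the adjusted p was between 0.079 and 0.14, and it was 0.066 in DESeq2 and 0.051 without a filter on low counts. With RLE factors (0.998), library size alone (0.96) or a fit of all 12 libraries (0.995) the log2 fold change was just under the fold limit. In EV cells the log2 fold change was -0.40 (SE 0.23, adjusted p = 1.0), and Rarb was lower with pioglitazone in each of the 3 same-numbered pairs. The interaction was 1.39 (SE 0.32, adjusted p = 0.047), and with 1 library left out it too missed the threshold, except without library 3 of EV cells with pioglitazone (adjusted p = 0.046).

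The Rarb window is shown because it holds the pair of hexamers for which this gene is known, the retinoic acid response element. The window is chr15:11336142-11336441 on the plus strand of GRCr8, from RefSeq. Capitals mark GGTTCA and AGTTCA with the 5 bases between them, beginning at base 25 after the start.
Rarb promoter: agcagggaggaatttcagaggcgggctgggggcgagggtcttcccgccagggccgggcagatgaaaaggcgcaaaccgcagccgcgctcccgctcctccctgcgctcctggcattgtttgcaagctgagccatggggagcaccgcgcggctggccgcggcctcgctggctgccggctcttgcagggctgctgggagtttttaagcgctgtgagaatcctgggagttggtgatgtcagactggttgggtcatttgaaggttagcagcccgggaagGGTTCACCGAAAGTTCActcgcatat
The same pair of hexamers with this spacing, on either strand, was in 3 of the 33469 windows (0.00896%), whereas AGTTCA alone was in 14.5%. Windows were at hand for 8 of the 9 members, and the spaced pair was in that of Rarb only. A match describes the letters only, and binding of a receptor to it was not measured here.

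Rarg was alike in both cell lines without pioglitazone, at 31.3, 30.7 and 28.2 CPM in EV cells and 25.2, 33.2 and 31.9 CPM in PPFP cells. With pioglitazone it was at 28.8, 31.4 and 27.8 CPM in EV cells and at 16.7, 24.5 and 24.8 CPM in PPFP cells. The libraries of PPFP cells with pioglitazone were the 3 lowest of the 12. The log2 fold change between the cell lines was 0.0028 (SE 0.12, adjusted p = 0.99) without pioglitazone, with a 95% interval from -0.24 to 0.25, and -0.40 (SE 0.16, adjusted p = 0.076) with it. The latter passed in DESeq2 (adjusted p = 0.047), with library size alone (0.035) and in the fit of all 12 libraries (0.034).

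**Figure D2:**
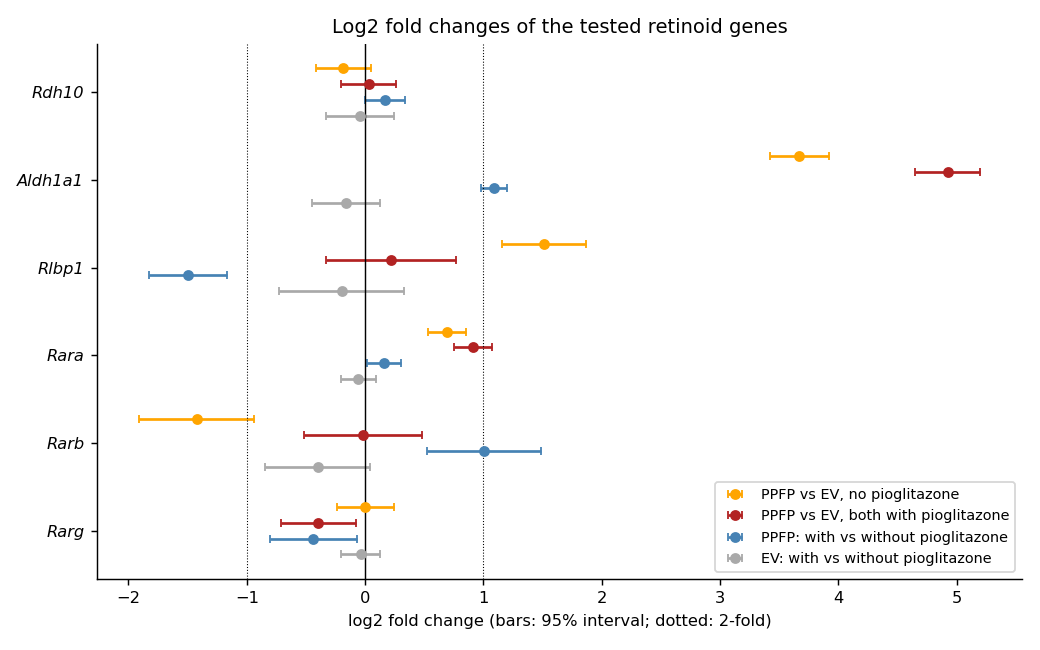
Log2 fold changes of the 6 retinoid genes that passed the filter on low counts in all 4 comparisons. Points are estimates and bars 95% intervals; dotted lines mark a fold of 2. Rlbp1 and Rarb had opposite signs for PPFP without pioglitazone (1.51 and -1.42) and for pioglitazone in PPFP cells (-1.50 and 1.00), while the EV responses ran from -0.40 (Rarb) to -0.04 (Rarg).

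Libraries with the same replicate number deviated together within each cell line, and with a block on that number more members passed the adjusted p, without the fold limit, for pioglitazone in PPFP cells. In that paired fit Rara rose by 0.16 (SE 0.04, adjusted p = 0.00086), against an adjusted p of 0.21 without the block. Rdh10 rose by 0.17 (SE 0.04, adjusted p = 0.0025), against 0.26. Rarg had a log2 fold change of -0.45 (SE 0.06, adjusted p = 1.2e-06), against 0.18. In each of the 3 pairs the library with pioglitazone was higher for Rara and Rdh10 and lower for Rarg. In PPFP cells libraries 2 and 3 also correlated across numbers (0.525 and 0.682). These paired p-values thus rest on numbers that do not set libraries 2 and 3 apart. With the block within each cell line, the interaction of Rlbp1 was -1.30 (SE 0.26, adjusted p = 0.0017), that of Rarb 1.39 (SE 0.31, adjusted p = 0.0037) and that of Rarg -0.42 (SE 0.08, adjusted p = 0.00080). A block shared by both lines, whose numbers did not pair between lines, gave an adjusted p of 0.058 for Rarb, which lost its call, and 0.058 for Rlbp1. The interactions within each line of Rara (0.21, adjusted p = 0.017) and Rdh10 (0.20, adjusted p = 0.036) were smaller in size.

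The number of Rara reads per Rarg read, which needs no normalisation between libraries, was 2.70, 2.67 and 2.85 in EV cells and 2.67, 2.75 and 2.68 in EV cells with pioglitazone. It was 4.83, 4.19 and 4.31 in PPFP cells and 8.43, 6.27 and 5.94 in PPFP cells with pioglitazone. The groups of PPFP cells stood above those of EV cells and did not overlap with each other. The ratio compares reads and not transcript numbers, since the lengths of the 2 transcripts were not used.

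**Figure D3:**
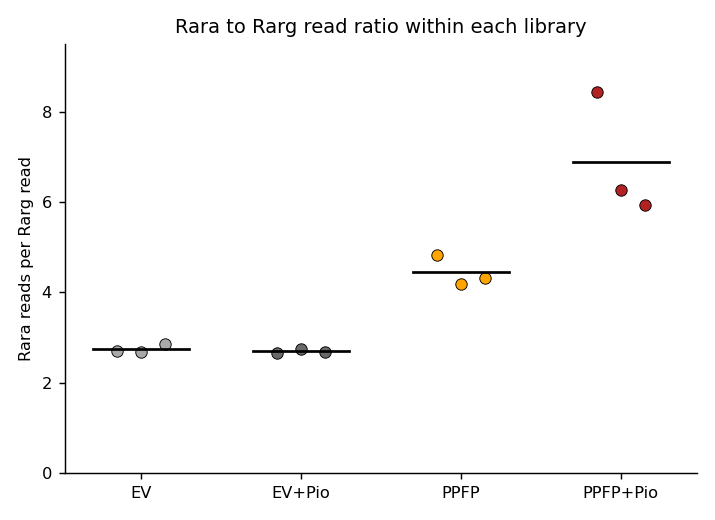
Reads of Rara per read of Rarg within each library (linear axis from 0). Points are the 3 libraries of a group and lines their mean: 2.74 in EV cells, 2.70 in EV cells with pioglitazone, 4.45 in PPFP cells and 6.88 in PPFP cells with pioglitazone.

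Across the list, 6 of the 9 genes were tested between PPFP and EV cells without pioglitazone. Of these, 3 were called, that is, their fold exceeded 2 and their adjusted p was under 0.05 (Aldh1a1 and Rlbp1 up, Rarb down), against 14.6% of all 10264 genes tested, and 4 passed without the fold limit, against 45.2%. With pioglitazone in both lines 1 of 6 was called (Aldh1a1), against 19.7% of 10291 genes, and 2 without the fold limit, against 52.7%. For pioglitazone in PPFP cells 3 of 6 were called (Aldh1a1 and Rarb up, Rlbp1 down), against 2.42% of 10064 genes, and the same 3 without the fold limit, against 14.8%. With the replicate block all 6 passed without the fold limit, where 51.6% of all genes did. The libraries of PPFP and EV cells did not overlap for 4 of 6 members without pioglitazone, against 56.5% of all genes. With pioglitazone in both lines this held for 3 of 6, against 62.9%. For pioglitazone in PPFP cells it held for 5 of 6, against 34.4%.

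In EV cells no member of 7 tested was called for pioglitazone, against 0% of the 10146 genes with the fold limit and 0% without it. Here edgeR gave 16 genes at an unadjusted p under 0.05 and no member, and DESeq2 also called 0 genes. Far more of 10146 genes would reach that p if none changed, so this unpaired test was conservative here. With the replicate block 1 gene passed without the fold limit and no member did. In that fit the log2 fold change was -0.16 for Aldh1a1 (SE 0.06, adjusted p = 0.81) and -0.40 for Rarb (SE 0.18, adjusted p = 0.81). The interaction was called for 2 of 7 members (Aldh1a1 and Rarb), against 0.925% of 10482 genes, and for the same 2 without the fold limit, against 2.64%. With the block within each cell line 6 of 7 passed, where 34.3% of all genes did. The median log2 fold change of the tested members was 0.35 for PPFP versus EV cells without pioglitazone, 0.12 with it, and 0.16 for pioglitazone in PPFP cells. Over all genes tested these medians were 0.0016, 0.012 and 0.012. The list held genes of both directions, so its median says little of any member.

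Of the genes whose level over the 12 libraries was most like that of Aldh1a1, among 9637 compared, Elovl5 (Pearson's r = 0.999), Hyal1 (0.998) and Pc (0.998) came first. Elovl5, a fatty acid elongase, was at 81.2 ± 1.07, 81.2 ± 5.47, 219.8 ± 4.84 and 293.2 ± 5.80 CPM in EV cells, EV cells with pioglitazone, PPFP cells and PPFP cells with pioglitazone. Pc, pyruvate carboxylase, was at 109.7 ± 2.35, 101.7 ± 3.61, 396.1 ± 7.62 and 580.1 ± 5.81 CPM. Both thus stepped up in the same order as Aldh1a1, by smaller folds. For Rlbp1 the closest were Erap1 (0.965), Ncf1 (0.955) and Masp1 (0.953). Erap1, an aminopeptidase that trims antigenic peptides, was at 181.3 ± 7.11, 178.6 ± 12.6, 218.7 ± 4.82 and 180.7 ± 1.57 CPM, a far smaller change than that of Rlbp1. Masp1, a serine protease of complement, was at 1.93 ± 0.56, 1.66 ± 0.59, 8.33 ± 0.62 and 2.70 ± 0.17 CPM. For Rara they were Nat9 (0.994), Ndrg1 (0.993) and Asb8 (0.992). These correlations are descriptions over 12 libraries in 4 groups, and the libraries of a group share its treatment and cell line.

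The other genes of the pathway were taken from lists by role, with 47 rows in the table. Between PPFP and EV cells without pioglitazone 18 of these could be tested and 5 were called, 4 of them up and 1 down, where 14.6% of all genes were called. Of the 4 up, Dhrs9, Aldh8a1 and Rxrg were near the floor in EV cells and passed the filter on low counts only through PPFP cells, so nothing is read from this share. Of 9 tested retinol and retinal oxidoreductases 2 were up, of 3 retinoid X receptors 1 was up and 1 down, and of 2 known retinoic acid targets 1 was up. Without the fold limit 8 of the 18 passed, 5 up and 3 down, against 45.2% of all genes, with Dhrs9, Aldh8a1 and Rxrg again among them. Of the oxidoreductases, Rdh11 also passed (0.64, SE 0.11, adjusted p = 0.0030), as did Dhrs3 in the other direction (-0.97, SE 0.20, adjusted p = 0.0064). None of the 2 tested genes of retinol uptake and storage was called, nor were that of retinoic acid catabolism (Cyp26b1) and that of the visual cycle (Clvs1). With pioglitazone in both lines 8 of 18 were called, 5 up and 3 down, against 19.7% of all genes. Of these, Dhrs9, Aldh8a1, Rxrg and Adh1 passed the filter only through PPFP cells and Stra6 and Cyp26b1 only through EV cells, so nothing is read from this count. Stra6, the retinol transporter, had 39, 29 and 17 counts in EV cells and 4, 3 and 4 in PPFP cells, and without pioglitazone, where it did not pass the filter, 26, 26 and 9 against 4, 3 and 2. Cyp26b1, which degrades retinoic acid, had 27, 26 and 14 counts in EV cells and 4, 11 and 10 in PPFP cells with pioglitazone. The alcohol dehydrogenase Adh1 then had 0 counts in EV cells and 12, 13 and 22 in PPFP cells. Its mean in PPFP cells was 5.92-fold the floor in EV cells, a value that leaves out counting error. These last 3 genes were singled out after their values were seen. No carotenoid cleavage gene and no other retinoic acid binding protein had enough reads.

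Dhrs9, a short-chain dehydrogenase that oxidises retinol, had 1, 3 and 5 counts in EV cells and 2882, 3281 and 2903 in PPFP cells. With pioglitazone it had 2, 3 and 5 counts in EV cells and 7678, 8801 and 9731 in PPFP cells. It was thus close to the floor in every library of EV cells. The ratio of its summed counts in PPFP to EV cells without pioglitazone, scaled by the normalised library totals, was 1165, with a 95% interval from 613 to 2548 that covers counting error only. Pioglitazone raised Dhrs9 in PPFP cells by 1.43 on the log2 scale (SE 0.09, adjusted p = 0.00043), and it was the only one of the 19 tested pathway genes called in that comparison, where 2.42% of all genes were.

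Aldh8a1, a retinal dehydrogenase that prefers the 9-cis form, had 1, 7 and 6 counts in EV cells and 96, 92 and 79 in PPFP cells. The ratio of the summed counts, scaled as for Dhrs9, was 22.1 (95% counting interval from 12.9 to 40.9). With pioglitazone it had 73, 83 and 104 counts in PPFP cells. The groups with and without pioglitazone overlapped, with a log2 fold change of -0.14 (SE 0.14, adjusted p = 0.58).

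Among the RXRs, Rxra was at 20.9, 22.0 and 19.3 CPM in EV cells and 10.2, 8.58 and 8.61 CPM in PPFP cells. Its log2 fold change was -1.18 (SE 0.12, adjusted p = 0.00021). Rxrg had 0, 5 and 5 counts in EV cells and 82, 99 and 64 in PPFP cells. The ratio of the summed counts, scaled in the same way, was 28.3 (95% counting interval from 15.1 to 59.8). With pioglitazone it had 136, 152 and 120 counts in PPFP cells. This change was 0.66 (SE 0.19, adjusted p = 0.064), or an adjusted p of 9.0e-05 with the replicate block.

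Nrip1, a corepressor of nuclear receptors and a known retinoic acid target, was at 31.5, 40.6 and 35.3 CPM in EV cells and at 78.9, 90.7 and 86.0 CPM in PPFP cells. This was a log2 fold change of 1.25 (SE 0.11, adjusted p = 0.00014). Tgm2, the other target of the list that was tested, was at 0.30 (SE 0.18, adjusted p = 0.21). Rarb, also a known target, was lower in PPFP cells (-1.42), so these targets did not share a direction. With pioglitazone Nrip1 rose in PPFP cells by 0.38 (SE 0.08, adjusted p = 0.021), to 103.7, 112.5 and 114.3 CPM. The adjusted p of this rise was 0.059 with scaling by library size alone, 0.084 without library 3 of PPFP cells, and 0.10 and 0.090 without libraries 2 and 3 of PPFP cells with pioglitazone. For the interaction with pioglitazone, none of the 20 pathway genes tested was called, against 0.925% of all genes, so no difference in response between the cell lines was shown for Dhrs9 (1.38, SE 0.58, adjusted p = 0.34), which was close to the floor in EV cells.

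**Figure D4:**
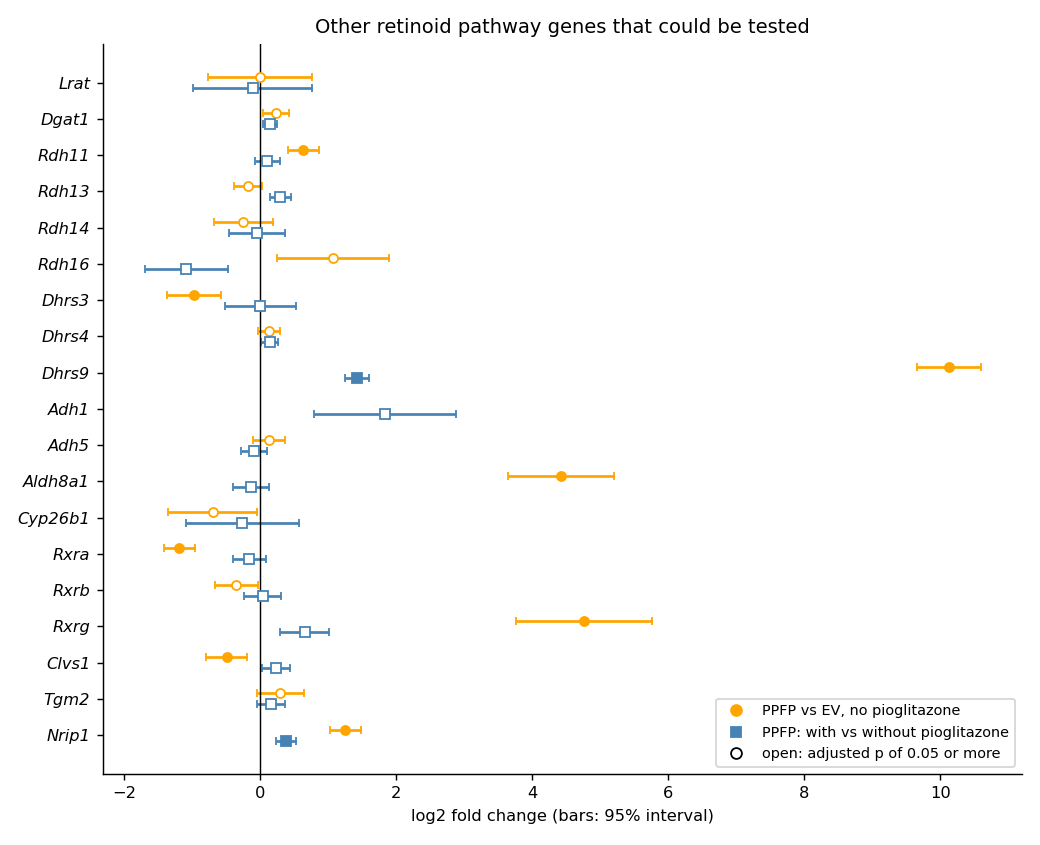
Log2 fold changes of the other retinoid pathway genes that passed the filter on low counts, ordered by role from retinol uptake to target genes. Circles are PPFP versus EV cells without pioglitazone, squares PPFP cells with versus without pioglitazone, and bars 95% intervals; open symbols had an adjusted p of 0.05 or more. Dhrs9 (10.13), Rxrg (4.76) and Aldh8a1 (4.42) stood farthest to the right, each near the floor in EV cells.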

How the data were processed

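The reads were aligned by the authors to rn4 with TopHat2 2.0.11 and counted per gene with HTSeq 0.6.1p1, per the submitters' processing notes. The deposited table holds these counts unnormalized, by gene symbol. The version of the gene annotation is not given in the sources used here. The 2 peak lists in the series were not used here.

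The whole table entered each fit. edgeR 4.0.16 in R 4.3.3 ran the quasi-likelihood test on the 6 libraries compared, after filterByExpr and TMM. The p-values were adjusted by Benjamini-Hochberg over all genes tested, and a call required an adjusted p under 0.05 together with a fold exceeding 2. The interaction was fitted on all 12 libraries. The SE is the size of the log2 fold change over the root of its F statistic, and the 95% intervals are normal intervals from it. At these depths the biological coefficient of variation was between 0.126 and 0.156. DESeq2 1.42.0, edgeR's exact test, RLE factors, library size alone, other filters and left-out libraries were alternatives. The scripts were tested on simulated data. Correlations used log2(CPM + 0.5) of genes averaging 1 CPM or more.

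The study describes 3 independent experiments. The deviations of libraries with the same number correlated between pioglitazone and vehicle at 0.852, 0.629 and 0.593 in PPFP cells and at 0.655, 0.837 and 0.878 in EV cells, so the numbers were taken as pairs within a cell line. In PPFP cells libraries 2 and 3 also correlated across numbers (0.525 and 0.682), so the numbers alone do not set libraries 2 and 3 apart. Where nothing else marks the libraries as separate cultures, p-values measure the spread between these libraries.

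Promoter windows came from RefSeq (GRCr8) and were searched on both strands for the letters given in the text and for pairs of the receptor hexamers. The Rdh10 window was not used here. All 9 members are named, and pathway genes are named where called in PPFP versus EV cells without pioglitazone or for pioglitazone in PPFP cells. Other pathway genes, such as Tgm2, Dhrs3 and Rdh11, were named after their values were seen. For the 3 members of widest range among those averaging 1 CPM or more, the 3 most correlated genes are named. Some genes of the lists are not reported here. The members and lists were chosen with earlier results of these data known.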

Additional observations from a re-analysis of the deposited data

Results flagged for a closer look

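The pioglitazone response of Aldh1a1 differed between the cell lines, with a log2 fold change in PPFP cells 1.24 above that in EV cells (adjusted p = 0.0035, interaction term of edgeR's quasi-likelihood test, 3 libraries per group). It was between 1.14 and 1.38 with any 1 library left out, and the adjusted p was then at most 0.017.

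The response of Rarb also differed, by 1.39 (adjusted p = 0.047). This test rested on 13 to 45 counts per library, and the adjusted p was between 0.046 and 0.12 with 1 library left out. It was 0.058 with a replicate block shared by both lines, 0.071 without a filter on low counts and 0.0037 with the block within each cell line.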

How the results depend on the processing

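Of 713 recomputed log2 fold changes of single genes, 657 kept their direction and side of the threshold, 25 no longer passed, 15 newly passed and 16 changed sign. The members called for the interaction fell from 2 to 1 without a filter on low counts and with a replicate block across the cell lines, and numbered 1 to 2 with 1 library left out. They rose to 3, with Rlbp1, in DESeq2 and with the block within each cell line. Those called for pioglitazone in PPFP cells fell from 3 to 2, without Rarb, in DESeq2, with RLE factors, library size alone or no filter, in the fit of all 12 libraries and with any 1 library left out. Rarg in PPFP versus EV cells without pioglitazone changed sign with library size alone (-0.076), without a filter (-0.0023) and with the replicate block (-0.0054), and lay between -0.061 and 0.14 with 1 library left out. With pioglitazone in both lines Rdh10 was -0.11 with library size alone, a scaling under which the median of all genes was -0.12, against 0.012. With 1 library left out, that comparison gave -0.10 to 0.14 for Rdh10, -0.018 to 0.34 for Rlbp1 and -0.18 to 0.10 for Rarb. Pioglitazone in EV cells then gave -0.16 to 0.066 for Rdh10, -0.10 to 0.43 for Crabp2 and -0.34 to 0.031 for Rlbp1. The cause was not tested; none of these values passed in the main comparison. Between the cell lines the replicate numbers did not pair the libraries (correlations from -0.48 to 0.42), and the block ended no call of the members, Dhrs9, Aldh8a1, Rxra, Rxrg, Nrip1 or Pparg there; other named genes were not run with it. The alternatives planned for the peaks were not run. Depth limits Aldh1a2, Aldh1a3 and Crabp2, and makes Rarb and Rlbp1 less certain than Aldh1a1, Rara, Rarg and Rdh10.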
